A study of Rattus norvegicus with 10 samples.

Results

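Genes of potassium, sodium and calcium channels were followed across 5 regions of the rat brain. They were taken by name: a probe set entered when the annotation gave it exactly 1 gene symbol and that symbol began with Kcn, with Scn or Hcn and a digit, or with Cacn. This gave 125 probe sets for 78 genes, out of 4736 genes with a single symbol, and none of them was an Hcn gene. Where a gene had several probe sets, the brightest by mean index over the 10 arrays stood for it. The rule used names and the mean index over all 10 arrays, and no difference between regions or treatments.

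The samples were total RNA of the ventral tegmental area (VTA), the prefrontal cortex (PFC), the amygdala and both parts of the striatum, the caudate putamen (caudate below) and the nucleus accumbens (accumbens below). For each of these regions, 1 array was run for rats given cocaine and 1 for rats given saline, so that all 10 groups held a single array. Strain, age and sex, the dose, route and length of treatment, and whether tissue of several rats was pooled are not stated in the labels. Values are dChip expression indices, a model-based intensity for each probe set on a linear scale, and an index of one probe set cannot be set against that of another.

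Potassium channels let potassium leave the cell and so bring a neuron back to rest, sodium channels carry the rising phase of the action potential, and calcium channels turn depolarization into calcium entry and transmitter release. Pore subunits form the conducting path, while accessory subunits bind to them and set their gating and their number at the surface. In the circuit sampled here, dopamine neurons of the VTA send axons to the accumbens, PFC and amygdala, and cocaine blocks the reuptake of the dopamine they release.

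The 78 genes comprised 27 voltage-gated potassium channel pore subunits, 15 inward rectifiers, 9 sodium channel pore subunits, 8 calcium channel pore subunits, 6 calcium channel accessory subunits, 5 potassium channel accessory subunits, 4 potassium channels gated by calcium or sodium, 3 two-pore leak channels and 1 sodium channel beta subunit. Of these, 51 lay in the upper 60% of probe sets by mean index over all arrays and were tested. The mean index was 1707 for the channel gene just below this limit of 1824 and 1963 for the one just above it. The tested genes were 19 voltage-gated potassium pores, 7 inward rectifiers, 6 calcium pores, 5 sodium pores, 5 potassium accessory subunits, 4 calcium accessory subunits, 3 calcium- or sodium-activated channels and 2 leak channels. The sodium channel beta subunit Scn2b, the only member of its class, had indices between 728.77 and 962.46 on the 10 arrays and was not tested. For 33 of the 78 genes the array carried more than 1 probe set, and another probe set is given beside the genes whose results turn on it.

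The median index of an array lay between 2211 and 2343. Over the tested probe sets, saline and cocaine arrays of the same tissue correlated with r between 0.94 in the amygdala and 0.992 in the caudate, and the array least like the others was that of the PFC after cocaine (median r 0.912). Exact zeros were treated as missing and touched 4 of the tested channel genes, which are named where they occur. The region labels were set against cell type markers. Of 8 tested markers of striatal projection neurons, all were higher in the caudate and 5 in the accumbens, 4 of 5 tested excitatory neuron markers were higher in the PFC, and 2 of 6 dopamine neuron markers, Th and Aldh1a1, were higher in the VTA. Th, which catalyses the first step from tyrosine to dopamine, had indices of 6363.1 and 7543.8 there and between 2598.7 and 2884 elsewhere.

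The first comparison tested every region against the average of the remaining 4, on the log2 scale and with treatment as a term. Among the 51 channel genes, the VTA had 5 lower and 1 higher at an adjusted p below 0.05 by limma. Of all tested genes, 3.18% were called lower and 6.82% higher in this region. In the PFC 3 channel genes were higher and 0 lower, where 1.27% and 3.12% of all genes were called. In the caudate 2 were higher and 0 lower, where 1.88% and 2.16% of all genes were called. In the amygdala 0 channel genes were called in either direction, against 0.34% of all genes higher and 0.216% lower, and in the accumbens also 0, against 0.525% and 0.0926%. At an unadjusted p under 0.05, limma gave 4 higher and 0 lower in the amygdala and 1 higher and 1 lower in the accumbens. The share of channel genes at an unadjusted p under 0.05 was 19.6% in the VTA, 17.6% in the caudate, 13.7% in the PFC, 7.84% in the amygdala and 3.92% in the accumbens, beside 19.9%, 15%, 15.8%, 8.52% and 5.03% of all tested genes. The median log2 difference of the channel genes lay between -0.0368 in the caudate and 0.0908 in the PFC, beside -0.0392 and 0.00249 for all genes. Because every region is part of the reference of the others, calls in different regions share arrays and are not independent. The 2 arrays of a region differ in treatment and are not replicates. The labels do not say whether the samples came from separate animals, so the spread behind these p-values may be technical.

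**Figure D1:**
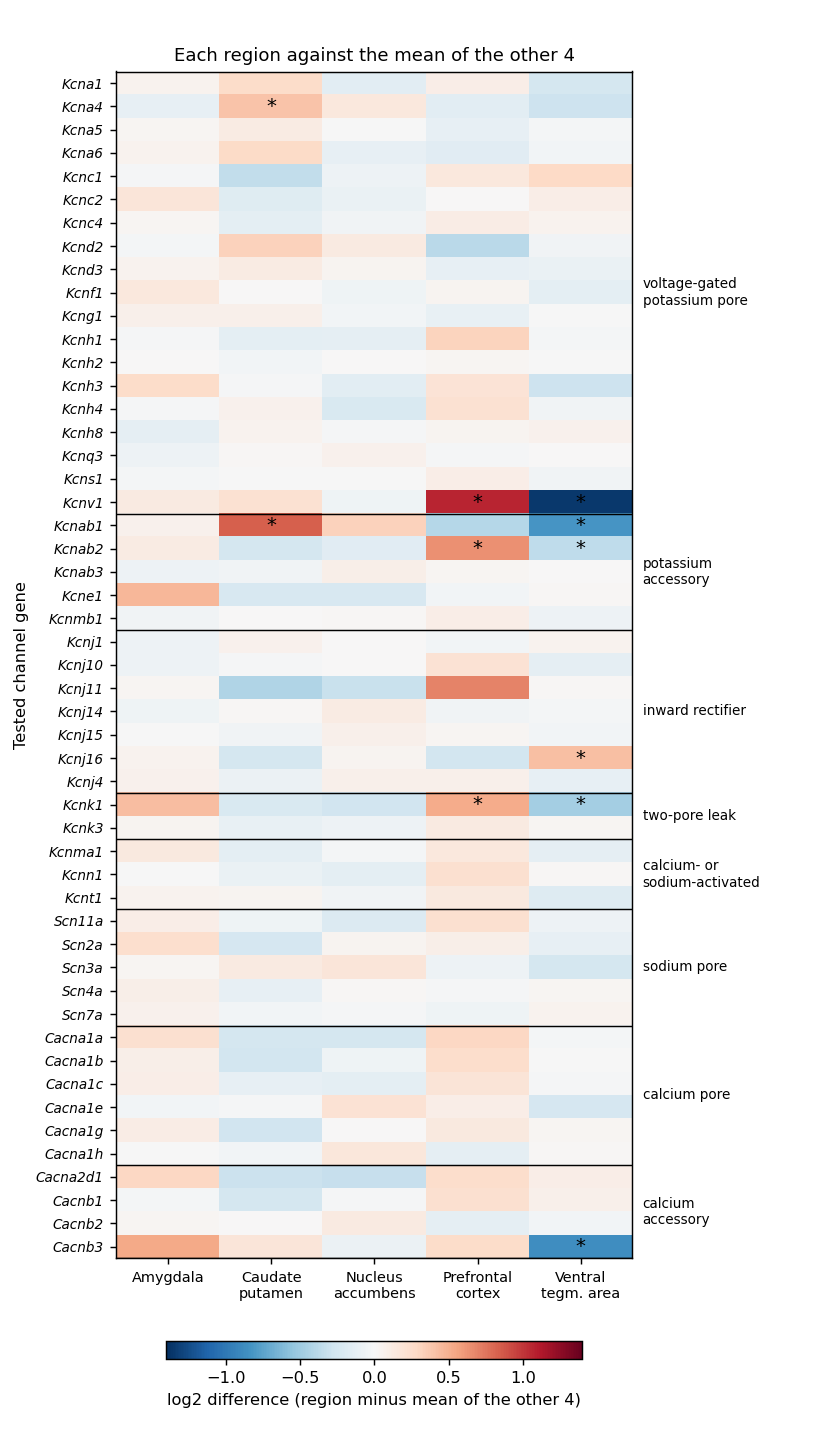
Log2 difference of each brain region from the mean of the other 4 (columns) for the 51 tested channel genes (rows, grouped by class); red is higher, blue lower, and an asterisk marks an adjusted p below 0.05 by limma. The asterisks fall on 7 genes, with 2 in the caudate, 3 in the PFC and 6 in the VTA, and most of the remaining fields are pale.

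Kcnv1 showed the widest range. It encodes a silent voltage-gated subunit, which conducts no current alone and alters the channels it joins. Its index was 5067.5 in saline and 3788.2 in cocaine samples of the PFC, and 1285.6 and 973.61 in the VTA, the last below the floor of 1028 used for the tests. In the remaining 3 regions it lay between 2163.5 and 3131.2. Both PFC arrays thus lay above, and both VTA arrays below, all the others. The PFC exceeded the mean of the other regions by 1.07 ± 0.17 on the log2 scale (SE), a 2.09-fold difference (adjusted p = 0.0147), and the VTA lay 2.54-fold below it (log2 -1.35 ± 0.17, adjusted p = 0.00212).

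The beta subunits of the Shaker family, which sit on the cytoplasmic face of these potassium channels, divided by region. Kcnab1, whose product gives such channels rapid inactivation, read 7351.1 (saline) and 5918.8 (cocaine) in the caudate, 5121 and 4842.9 in the accumbens, 4122.1 and 4504.4 in the amygdala, 3427 and 3251.4 in the PFC, and 2849.6 and 2428.7 in the VTA. No region overlapped the next in this order. The caudate stood 1.78-fold above the mean of the others (log2 0.83 ± 0.0961, adjusted p = 0.00283) and the VTA 1.77-fold below it (log2 -0.83 ± 0.0961, adjusted p = 0.00152). The differences in the accumbens (log2 0.32 ± 0.0961) and PFC (log2 -0.40 ± 0.0961) had adjusted p-values of 0.522 and 0.0614.

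Kcnab2, another beta subunit of the same channels, read 9466.7 (saline) and 9437 (cocaine) in the PFC, 7272.4 and 6863 in the amygdala, 6174.5 and 5937.6 in the accumbens, 5857.9 and 5696.2 in the caudate, and 5382.6 and 5509.4 in the VTA. The PFC mean of 9451.8 (SD 21.02 over 1 saline and 1 cocaine array, not replicates) was separated from every other region. All 5 regions were again free of overlap. The PFC was 1.56-fold higher than the mean of the others (log2 0.64 ± 0.0704, adjusted p = 0.00292) and the VTA 1.28-fold lower (log2 -0.35 ± 0.0704, adjusted p = 0.0169). A second probe set of Kcnab2 did not show this. Its PFC indices were 4442.4 and 3411.5, against a range of 3070.5 to 4377.9 elsewhere, and its differences were 0.03 ± 0.105 in the PFC and 0.19 ± 0.105 in the VTA on the log2 scale, with adjusted p-values of 0.937 and 0.386. The third beta subunit, Kcnab3, stayed between 3059.3 and 3539 on all arrays and was called in no region.

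Kcna4, a pore subunit of the Shaker family that carries a rapidly inactivating current, was highest in the caudate. It read 3418.7 and 3609.7 there in saline and cocaine samples, 3047.6 and 3062.1 in the accumbens, and between 2384.3 and 2839.4 in the remaining 6 samples. The caudate arrays lay above all others, 1.32-fold over the mean of the other regions (log2 0.40 ± 0.0792, adjusted p = 0.0293). A second probe set, below the limit for testing, read 1108.5 and 1106 in the caudate and between 387.11 and 922.63 elsewhere. Its 8 values outside the caudate all lay below the floor of 1028. Kcna1, its relative with a slowly inactivating current found along axons, had log2 differences of 0.25 ± 0.0785 in the caudate and -0.25 ± 0.0785 in the VTA, with adjusted p-values of 0.143 and 0.0955.

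Kcnk1, a leak channel of the two-pore family that contributes to the resting potential, read 5219.4 (saline) and 4237.7 (cocaine) in the PFC and 4494.9 and 4483.8 in the amygdala, which overlapped. It read 3235.2 and 3026 in the caudate, 3014.7 and 3072.6 in the accumbens, and 2534.9 and 2892.9 in the VTA. PFC and amygdala thus lay above the striatal regions, and the VTA arrays below all others. The PFC was 1.43-fold above the mean of the others (log2 0.52 ± 0.0998, adjusted p = 0.0278) and the VTA 1.39-fold below (log2 -0.48 ± 0.0998, adjusted p = 0.0204). The amygdala's difference of 0.44 ± 0.0998 had an adjusted p of 0.145, the smallest of any channel gene in that region. With zeros raised to the floor in all probe sets, the adjusted p in the PFC was 0.0555, and over the alternatives tried it lay between 0.0099 and 0.157.

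Cacnb3, a beta subunit that brings calcium channel pores to the membrane, was lowest in the VTA. Its indices were 3335.1 and 3146.4 there in saline and cocaine samples, 5267.8 and 4749.2 in the accumbens, 6055.8 and 5454.8 in the caudate, and 7176.6 and 5065 in the PFC. In the amygdala the cocaine array read 6488.9 and the saline array was listed at 0, which the fit left out. The VTA arrays lay below every other measured value, 1.82-fold under the mean of the other regions (log2 -0.87 ± 0.104, adjusted p = 0.00304). With the zero raised to the floor, this difference was -0.51 with an adjusted p of 0.803. Over the alternatives tried the adjusted p lay between 0.000277 and 0.803.

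Kcnj16, an inward rectifier that joins the glial channel subunit Kcnj10, was the channel gene called higher in the VTA. It read 2940 and 3152.8 there in saline and cocaine samples and between 2049.6 and 2725.7 in the other regions, with the cocaine array of the PFC listed at 0 and left out. The VTA arrays lay above all measured values elsewhere, 1.34-fold over the mean of the other regions (log2 0.42 ± 0.101, adjusted p = 0.0424). The adjusted p was 0.053 after quantile normalization and 0.228 with the zero raised to the floor, and over the alternatives tried it ran from 0.00991 to 0.421. Kcnj10 itself read 4300.5 and 4229.3 in the VTA, below the range of 4337.5 to 6011.5 elsewhere, and was not called. Its second tested probe set read 1950.2 and 2196 in the VTA, the latter the highest of its 10 arrays, with a difference of 0.10 ± 0.0912 (adjusted p = 0.677). A second, untested probe set of Kcnj16, with all values below the floor, was also highest in the VTA, at 856.46 and 687.27 against 325.53 to 584.24 elsewhere.

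With each array left out in turn, Kcnab2 in the PFC was called in 10 of 10 fits. Kcnab1 and Kcnv1 in the VTA were called in 9 of 10, and each was lost without the cocaine array of that region (adjusted p 0.053 and 0.0689). Cacnb3 was called in 8 of the 9 fits that gave a value and lost without the saline array of the VTA (0.0602). Kcnab1 in the caudate was called in 8 of 10 and lost without either array of that region (0.0573 and 0.144). The calls of Kcnv1 in the PFC, of Kcna4 in the caudate, and of Kcnk1 and Kcnab2 in the VTA were kept in 4 of 10, and those of Kcnk1 in the PFC in 3 of 10 and of Kcnj16 in 3 of 9. These 6 lost their call without any 1 of the caudate arrays, the accumbens arrays or the arrays of their own region, with adjusted p-values up to 0.451. Kcna4 also lost it without either array of the VTA, and Kcnk1 in the PFC without the saline array of the VTA.

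**Figure D2:**
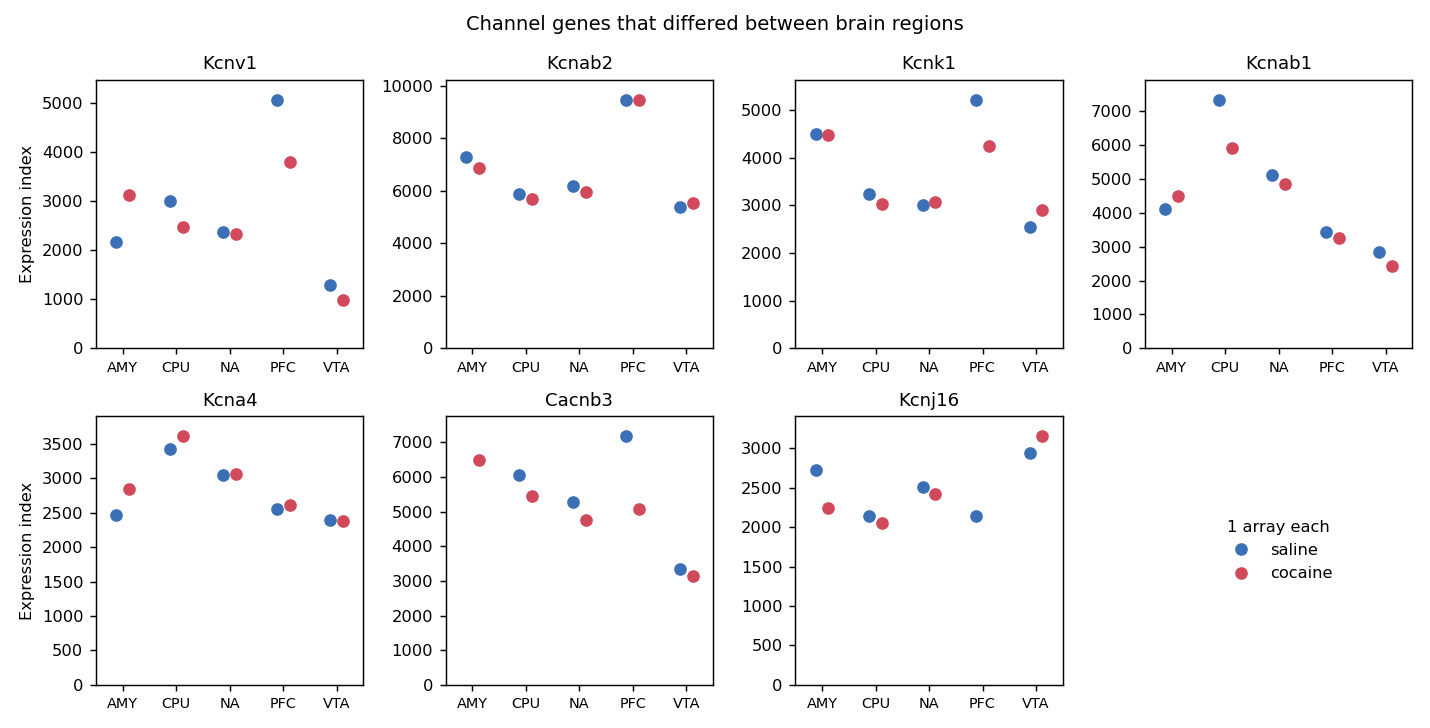
Expression index (linear scale, from 0) of the 7 channel genes called in at least 1 region, with 1 point per array, saline in blue and cocaine in red; AMY stands for the amygdala, CPU for the caudate putamen and NA for the nucleus accumbens, and values listed at 0 are not drawn. Kcnv1, Kcnab2 and Kcnk1 have their highest points in the PFC, Kcnab1 and Kcna4 in the caudate and Kcnj16 in the VTA.

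Promoters of genes that separated the VTA are shown to let the members be compared, since 3 of them were lower and 1 higher there. The sequences are from RefSeq, build GRCr8, whose table held 58 of the 78 channel genes and 5 of the 7 that were called. Kcnv1 and Kcnk1, both also called lower in the VTA, were missing from it. Each sequence runs from 250 bases before the transcription start to 50 after it. Capitals mark the motifs found among those searched on both strands: the GC box GGGCGG, the TATA box TATAAA, the CCAAT box CCAAT, the cyclic AMP response element TGACGTCA and the E box CACGTG. Kcnab1 lies at chr2:151614301-151614600 (plus strand), Kcnab2 at chr5:168270711-168271010 (minus strand), Cacnb3 at chr7:131666301-131666600 (plus strand) and Kcnj16 at chr10:96517074-96517373 (plus strand).
Kcnab1: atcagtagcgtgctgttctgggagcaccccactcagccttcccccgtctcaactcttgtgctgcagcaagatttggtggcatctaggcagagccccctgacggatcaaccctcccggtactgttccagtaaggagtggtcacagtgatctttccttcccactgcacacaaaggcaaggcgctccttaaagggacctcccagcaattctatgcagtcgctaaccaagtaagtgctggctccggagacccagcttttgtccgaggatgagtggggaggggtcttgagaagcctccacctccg
Kcnab2: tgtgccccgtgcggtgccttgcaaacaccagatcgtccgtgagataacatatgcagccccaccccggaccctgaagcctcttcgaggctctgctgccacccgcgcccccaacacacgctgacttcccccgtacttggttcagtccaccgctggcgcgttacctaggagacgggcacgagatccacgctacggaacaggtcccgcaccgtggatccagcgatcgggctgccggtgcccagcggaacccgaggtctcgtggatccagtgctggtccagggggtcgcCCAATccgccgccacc
Cacnb3: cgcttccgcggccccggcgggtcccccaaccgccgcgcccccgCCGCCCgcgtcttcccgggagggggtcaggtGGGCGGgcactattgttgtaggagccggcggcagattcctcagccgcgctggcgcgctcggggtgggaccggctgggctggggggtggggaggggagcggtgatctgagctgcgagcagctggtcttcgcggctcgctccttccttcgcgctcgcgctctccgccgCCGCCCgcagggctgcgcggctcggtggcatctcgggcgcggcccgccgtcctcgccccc
Kcnj16: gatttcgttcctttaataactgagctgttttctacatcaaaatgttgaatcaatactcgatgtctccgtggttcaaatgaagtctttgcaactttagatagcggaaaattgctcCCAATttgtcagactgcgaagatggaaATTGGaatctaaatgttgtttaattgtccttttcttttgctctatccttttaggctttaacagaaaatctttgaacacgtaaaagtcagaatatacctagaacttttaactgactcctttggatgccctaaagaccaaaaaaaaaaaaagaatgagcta

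The promoters shown of genes called lower in the VTA differed from one another. The call of Kcnab2 there was not repeated by its other tested probe set. Those of Cacnb3 and Kcnj16 were lost with zeros raised to the floor. GC content was 77.7% in Cacnb3, with 44 CpG dinucleotides and 3 GC boxes, 66.0% in Kcnab2, with 28 CpG and 1 CCAAT box, and 56.7% in Kcnab1, with 9 CpG and none of the motifs. Kcnj16, the gene higher there, had the lowest GC content of the 4 at 34.0% and 2 CCAAT boxes. The Kcna4 promoter, at 41.7% GC, held none of the motifs. The median GC content over 33469 promoters was 51.7%. A GC box was found in 33 of 65 channel gene promoters (50.8%) and in 33.1% of all promoters, a CCAAT box in 27.7% and 37.5%, a TATA box in 4.6% and 14.2%, an E box in 3.1% and 6.4%, and the cyclic AMP response element in 0 of 65 and 1.8%. The motifs do not overlap one another in their letters, and a match is a description of the sequence, not evidence of binding.

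The arrays were also compared without a model. Of 47 tested channel genes with a value on every array, 9 had both VTA arrays below the other 8 arrays, beside 4.92% of all such genes, and 0 had both above, beside 12.3%. The 9 genes were Kcna1, Kcna4, Kcnab1, Kcnab2, Kcnh3, Kcnj10, Kcnk1, Kcnt1 and Kcnv1. Of these, Kcna1, Kcna4, Kcnab2, Kcnh3 and Kcnj10 had another probe set, and in 0 of these 5 did it place both VTA arrays below the rest. In the caudate 3 lay above (Kcna4, Kcna6 and Kcnab1), beside 4.56% of all genes, and 4 below (Cacna1b, Cacna1g, Kcnc1 and Kcnc4), beside 8.39%. In the PFC Kcnab2 and Kcnv1 lay above, beside 2.81%, and 0 below, beside 5.25%. In the amygdala Kcnf1 lay above, beside 1.45%, and Kcnh8 below, beside 1.22%. In the accumbens Cacna1e lay above, beside 2.38%, and 0 below, beside 1.62%. As a share of the 47 genes, the count below in the VTA was 19.1%, and the counts above and below in the caudate were 6.38% and 8.51%. Outside the VTA, another probe set repeated the position of Kcna4 and Cacna1b in the caudate, for Kcna4 with 8 of 10 values below the floor. None repeated that of Kcna6 there, of Kcnab2 in the PFC or of Kcnh8 in the amygdala.

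Of the voltage-gated potassium pores, Kcnc1, whose fast channels let neurons fire at high rates, was lowest in the caudate and passed the test in no region. It read 2087.5 and 2200.7 in the caudate, below all other arrays, and 3196.8 and 2841.4 in the VTA. Its differences were -0.34 ± 0.0904 in the caudate and 0.27 ± 0.0904 in the VTA on the log2 scale, with adjusted p-values of 0.0919 and 0.109. Kcnd2, the pore of the dendritic A-type current, read 3557.4 and 3785.2 in the caudate and 2770.2 and 2235.7 in the PFC, with the saline array of the amygdala listed at 0. The related Kcnd3 was listed at 0 on the cocaine array of the PFC and was called in no region. The PFC difference of Kcnd2 was -0.38 ± 0.106 (adjusted p = 0.117). Its second tested probe set had values of 2787.4 and 2699.4 in the caudate and 1732 and 1223.7 in the PFC, with a PFC difference of -0.57 ± 0.193 (adjusted p = 0.164), so both probe sets lay in the same direction without passing the test. Kcnh3, an ether-à-go-go-like channel of forebrain neurons, read 13092 and 11957 in the amygdala and 8775.9 and 9697.1 in the VTA, a VTA difference of -0.29 ± 0.0803 (adjusted p = 0.0563). Its second tested probe set stayed between 2099.2 and 2535, with a VTA difference of -0.001 ± 0.0892 (adjusted p = 0.999).

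No sodium channel gene was called in any region. Scn3a, a pore subunit prominent in the developing brain, read between 6469.1 and 9746.7, with its lowest value on the cocaine array of the VTA and 8526.4 on the saline array there. Scn2a, a main pore subunit of excitatory axons, read 2850.5 and 3406.8 in the amygdala and 2527.3 and 2272 in the caudate, and without the saline array of the amygdala it was called higher in that region (log2 0.51 ± 0.131). Scn1a, the pore subunit known from fast-spiking inhibitory neurons, fell below the limit for testing. It read 2800.3 and 1630.6 in the saline and cocaine samples of the PFC, 1778.8 and 1784.7 in the VTA, and between 1061.3 and 1572 elsewhere.

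No calcium channel pore was called in any region. Among the 6 tested pores the ratio of the highest to the lowest region mean lay between 1.166 for Cacna1h, a low-threshold T-type pore, and 1.38 for Cacna1a, the pore of the P/Q-type channel of nerve terminals, and the untested Cacna1d and Cacna1s had ratios of 1.423 and 1.276. Cacna1g, another T-type pore, read 2896.3 and 3182.4 in the caudate and between 3361.2 and 4135.1 elsewhere, and its difference of -0.27 ± 0.104 had an adjusted p of 0.262. Cacna2d1, the accessory subunit that binds gabapentin, read 8174.8 and 11616 in the amygdala, 11023 and 8197.6 in the PFC, 8216.3 and 9263.6 in the VTA, 7628.1 and 6436 in the caudate, and 6483.8 and 7380.9 in the accumbens. The arrays of the amygdala differed from each other by more than the highest and lowest region means did.

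Genes whose products bind, anchor or regulate channels, or move ions, were read beside the members. Chloride channel genes such as Clcn3 were among them. Of 30 tested partner genes, 3 were higher and 4 lower in the VTA, where 6.82% and 3.18% of all tested genes were called. In the caudate 2 were higher and 3 lower, beside 1.88% and 2.16%, and in the PFC 2 higher and 1 lower, beside 1.27% and 3.12%. In the amygdala and accumbens 0 were called. The median log2 difference of the 30 lay between -0.106 in the VTA and 0.0952 in the PFC. The following 3 were chosen after their values were seen. Itpr1, the receptor that releases calcium from internal stores, read 11066 and 11617 in the caudate, 2334.2 and 2172.3 in the VTA and between 5777.4 and 7601 elsewhere, with log2 differences of 1.17 (adjusted p = 0.000258) and -1.74 (adjusted p = 3.43e-05). Atp2b1, a pump that moves calcium out through the plasma membrane, read 11167 and 9357.1 in the caudate and 2831.7 and 3130.4 in the VTA, with log2 differences of 1.003 (adjusted p = 0.000896) and -1.22 (adjusted p = 0.000228). Like Kcnab1, both were highest in the caudate and lowest in the VTA. The related pump Atp2b2 was higher in the PFC (log2 0.73, adjusted p = 0.02) and lower in the VTA (log2 -0.64, adjusted p = 0.017).

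Some cell type markers moved with these regions. No tested astrocyte, endothelial and mural, or microglia marker was called in any region. Of 7 inhibitory neuron markers, 1 was higher and 2 lower in the PFC, 1 higher and 1 lower in the VTA, and 0 higher and 1 lower in the caudate. The summed index of the 5 tested excitatory neuron markers was 94208 and 93660 in the PFC, 22127 and 28738 in the VTA and between 40840 and 76364 elsewhere. That of the 8 striatal markers was 114150 and 113020 in the caudate and between 15353 and 75865 elsewhere. Such sums weigh the brightest probe sets most, and members can differ. In the caudate the excitatory marker Nrgn was higher (log2 0.67) and Cck and Nrn1 lower (-1.10 and -1.15), while Nptx1 was called in no region. Of 5 oligodendrocyte markers 4 were higher in the VTA and 2 in the caudate, with sums of 99691 and 115160, and of 118240 and 109330, against 64406 to 85113 elsewhere. Of 4 tested hypothalamic markers Hcrt alone was higher in the VTA, at 23627 in the saline and 6807.8 in the cocaine sample against 2737.8 to 3619.7 elsewhere, while Oxt was listed at 0 on the saline array there. The choroid plexus markers Ttr and Enpp2 summed to 48421 and 34569 in the amygdala and to 43172 and 16613 in the caudate, against 4951 to 11391 elsewhere. These sums were mostly Ttr, which by limma was higher in the amygdala (log2 3.18, adjusted p = 0.0109) and caudate (log2 2.15, adjusted p = 0.0107). Enpp2 was called higher in neither, and was higher in the VTA (log2 0.60, adjusted p = 0.0336), at 6960 and 7144.4. The part of these markers in the channel results was not tested, and in such bulk samples fewer cells of a type and less RNA per cell cannot be told apart.

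The second comparison set cocaine against saline over the 5 regions, with region as a block. By limma 0 of 51 channel genes passed the threshold and the smallest adjusted p was 1, and 0 of all 3240 tested genes passed (0%). At an unadjusted p under 0.05 there was 1 channel gene, beside 1.02% of all genes. It was Cacnb3, with a log2 change of -0.22 ± 0.0906 (unadjusted p = 0.0448, adjusted p = 1), lower in 4 of the 4 regions where both arrays had a value. The fitted log2 change was above 0 for 27 channel genes and below 0 for 24, with a median of 0.00403, beside -0.00516 for all tested genes. Whether the samples came from separate animals is not given in the labels, and the p-values then reflect only how far these samples spread, which may be technical.

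Kcna1 was the only one of 47 channel genes with values on all arrays whose ratio had the same sign in all 5 regions, beside 2.87% of all genes. It read 6069.1 in saline and 5110.8 in cocaine samples of the amygdala, 6572.4 and 5923.6 in the caudate, 5115.6 and 4877.9 in the accumbens, 5737.7 and 5660.3 in the PFC, and 4756.8 and 4690.1 in the VTA. The cocaine sample was lower each time, by log2 ratios of -0.25, -0.15, -0.07, -0.02 and -0.02, and the fitted change of -0.10 ± 0.0629 had an unadjusted p of 0.146 and an adjusted p of 1. A second probe set of Kcna1, with all 10 values below the floor, read higher with cocaine in the amygdala (314.98 and 711.84) and accumbens (631.36 and 766.14) and lower in the other 3 regions.

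Inside a region, each ratio compares a single cocaine array with a single saline array, so it has no replicate check and no test. Channel genes with a fold of at least 1.5 were counted. In the amygdala 5 of 49 were lower and 0 higher with cocaine, where 7.02% of all tested genes were lower and 1.1% higher. In the PFC 3 of 49 were higher and 0 lower, where 2.84% of all genes were higher and 1.21% lower. In the VTA 1 of 51 was higher and 0 lower, where 0.975% and 0.755% of all genes were. In the accumbens 1 of 51 was lower and 0 higher, where 0.185% and 0.0309% of all genes were. In the caudate 0 of 51 lay past this fold in either direction, beside 0% of all genes higher and 0.124% lower. The median log2 ratio of the channel genes was -0.103 in the amygdala, -0.0371 in the caudate, -0.0215 in the accumbens, 0.04 in the PFC and 0.0713 in the VTA, beside -0.0364, -0.0208, -0.0302, 0.0246 and 0.0381 for all tested genes.

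**Figure D3:**
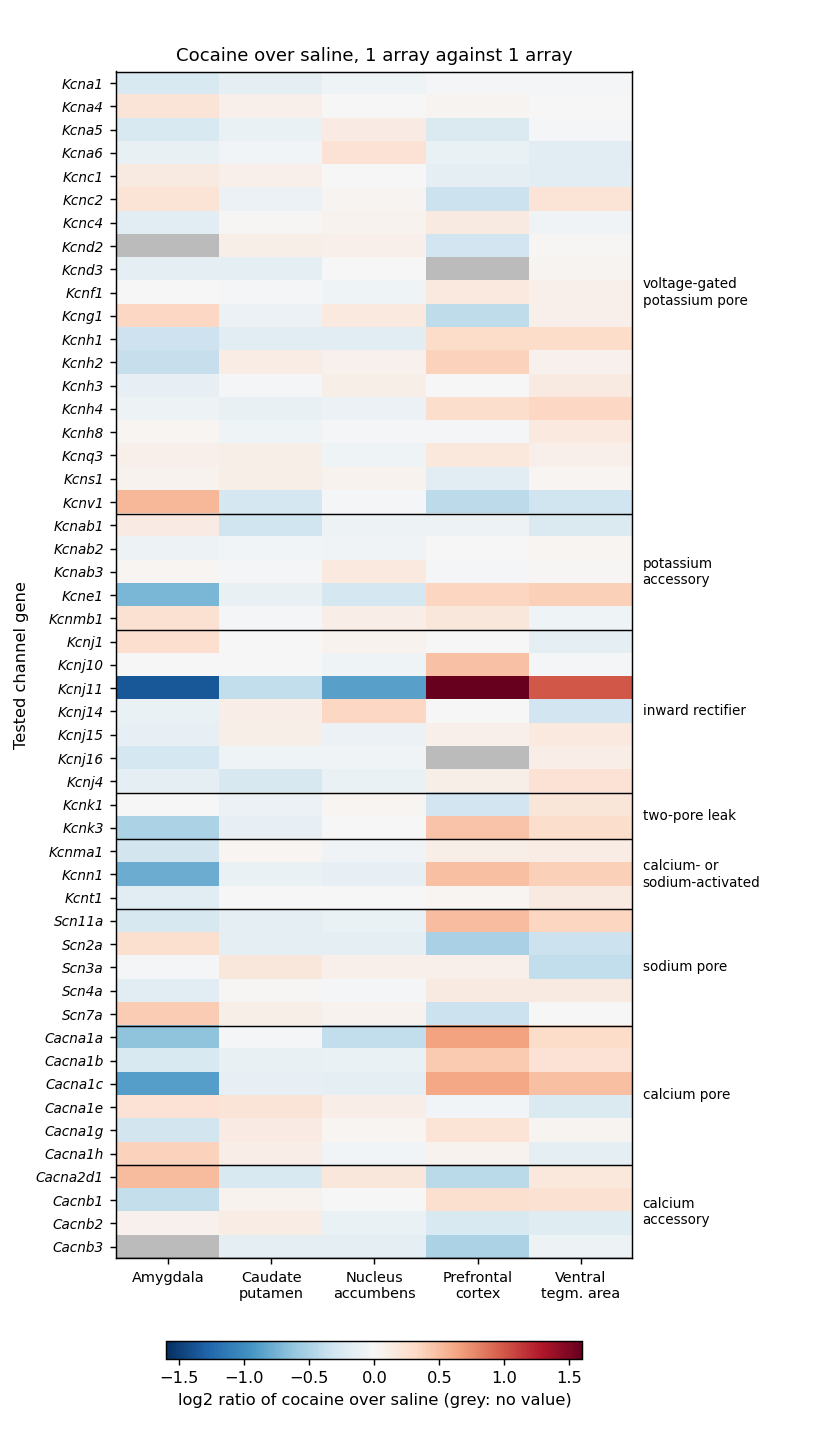
Log2 ratio of the cocaine over the saline array in each brain region (columns) for the 51 tested channel genes (rows, grouped by class), with grey where an array was listed at 0. Kcnj11 has the deepest fields, blue in the amygdala (-1.36) and accumbens (-0.87) and red in the PFC (1.59) and VTA (0.99).

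Kcnj11 accounted for the widest ratios in every region in which a channel gene passed 1.5-fold. It encodes the pore of the potassium channel that ATP closes and that links excitability to energy supply. Its index was 13907 in saline and 5410.3 in cocaine samples of the amygdala, 7763.5 and 5927.5 in the caudate, 9746 and 5327.9 in the accumbens, 7268.9 and 21898 in the PFC, and 6104.9 and 12160 in the VTA. The cocaine sample was thus lower in 3 regions and higher in 2, with log2 ratios of -1.36, -0.39, -0.87, 1.59 and 0.99. The change fitted over the regions was -0.01 ± 0.403 (adjusted p = 1).

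A second probe set of Kcnj11, named after the same sequence record, gave none of this. It read 4388 and 5131.8 in saline and cocaine samples of the amygdala, 5035.9 and 4948.2 in the caudate, 4637.7 and 4893 in the accumbens, 5408.9 and 5239.7 in the PFC, and 4775.5 and 4323 in the VTA. All 10 values lay between 4323 and 5408.9, against 5327.9 to 21898 for the first probe set. Abcc8, the sulfonylurea receptor that completes this channel, was below the limit for testing. One of its probe sets read 2577.3 and 1188.4 in the amygdala, 1294.7 and 3099.6 in the PFC and 1244 and 2055.8 in the VTA, in the directions of the first Kcnj11 probe set. Its other probe set, between 1022.3 and 1639.8 on all arrays, had the same directions in these regions. It read 1351.2 and 1022.3 in the amygdala, 1158.9 and 1639.8 in the PFC, and 1025.7 and 1231.1 in the VTA. In the caudate it read 1054 and 1146.8, the opposite direction to the first Kcnj11 probe set.

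**Figure D4:**
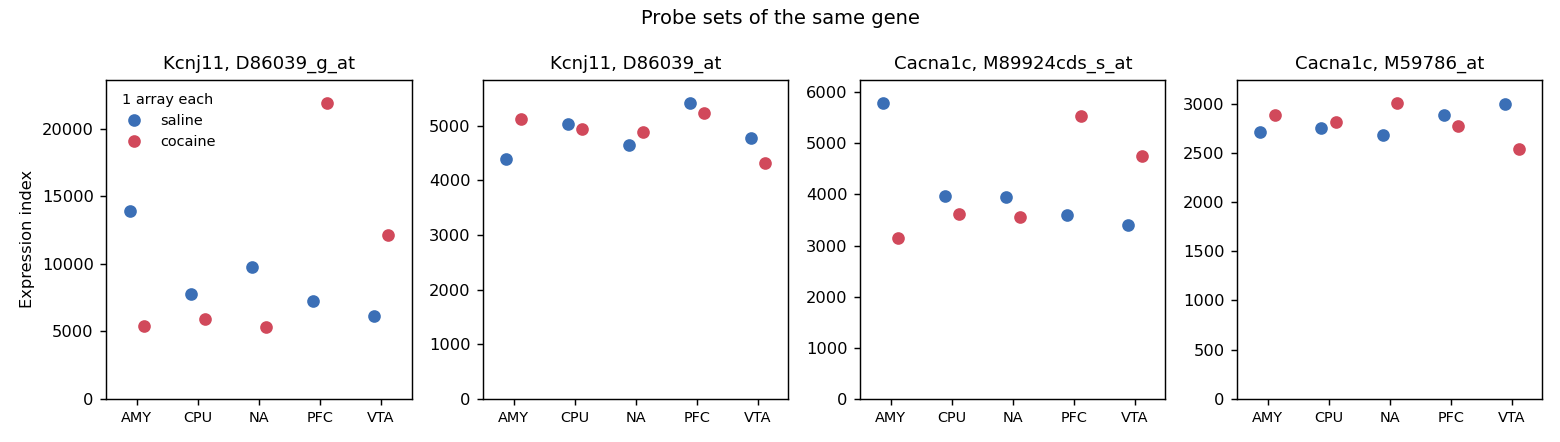
Expression index (linear scale, from 0) of the 2 probe sets of Kcnj11 and of the 2 tested probe sets of Cacna1c, with 1 point per array, saline in blue and cocaine in red; AMY stands for the amygdala, CPU for the caudate putamen and NA for the nucleus accumbens. In the left panel of each gene the arrays of the amygdala, PFC and VTA spread widely, and in the right panel of Kcnj11 all arrays lie between 4323 and 5408.9.

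The calcium pores Cacna1c and Cacna1a gave ratios in the same directions. Cacna1c, the pore of the main L-type channel of neurons and heart, read 5781.9 and 3145.5 in saline and cocaine samples of the amygdala, 3965.4 and 3621.8 in the caudate, 3940.9 and 3562.8 in the accumbens, 3604 and 5537.5 in the PFC, and 3406.4 and 4744.1 in the VTA. The log2 ratios were -0.88 in the amygdala, 0.62 in the PFC and 0.48 in the VTA. Its second tested probe set lay between 2541.4 and 3001.6 on all 10 arrays, with 2712.6 and 2884.3 in the amygdala and 2886.3 and 2774.6 in the PFC, so the order of saline and cocaine was turned in both regions.

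Cacna1a read 4015.4 and 2579 in the saline and cocaine samples of the amygdala and 2682.1 and 4180.8 in the PFC, log2 ratios of -0.64 and 0.64. In the accumbens it read 2849.9 and 2171.4, a ratio of -0.39. Of its 2 other tested probe sets, one went the same way, at 2400.3 and 1617.5 in the amygdala and 1947.6 and 2508.3 in the PFC. The other read 2462.2 and 2778.5 in the amygdala and 3068.8 and 3157.2 in the PFC.

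The remaining 2 genes lower by 1.5-fold or more in the amygdala were Kcnn1, a small-conductance channel opened by calcium, and Kcne1, a single-span accessory subunit. Kcnn1 read 3413 in the saline and 1971.5 in the cocaine sample of the amygdala (log2 ratio -0.79), 2492.3 and 3479.8 in the PFC (0.48) and 2311.9 and 3004.7 in the VTA (0.38). Kcne1 read 3204.1 and 1929.3 in the amygdala (-0.73), 1675.9 and 2121.6 in the PFC (0.34) and 1698.1 and 2213.6 in the VTA (0.38). The saline array of the amygdala was the highest of the 10 for Kcne1, and for Kcnn1 only the cocaine array of the PFC exceeded it.

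The highest ratios in the amygdala belonged to other genes. Kcnv1 read 2163.5 and 3131.2 there (log2 ratio 0.53), Cacna2d1 8174.8 and 11616 (0.51) and Scn7a, an atypical sodium channel, 2431.1 and 3210.1 (0.40). In the PFC these genes read in the other direction, with log2 ratios of -0.42, -0.43 and -0.35. The lowest PFC ratios were those of Scn2a, which read 3417.9 and 2387.5 (-0.52), and Cacnb3, which read 7176.6 and 5065 (-0.50). In the VTA the lowest were Scn3a at 8526.4 and 6469.1 (-0.40), Scn2a at 2882.9 and 2280.7 (-0.34) and Kcnj14, an inward rectifier, at 4075.7 and 3284.5 (-0.31).

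The striatal pairs lay closer together. In the caudate the lowest ratios after Kcnj11 were those of Kcnab1 (-0.31) and Kcnv1 (-0.28), and the highest were Cacna1e, the R-type calcium pore, at 1794.8 and 2078.2 (0.21), Scn3a (0.18) and Cacna1g (0.14). In the accumbens Kcnj14 read 3538.1 and 4438.2 (0.33), Kcna6, a Shaker pore subunit, 2124.4 and 2497.5 (0.23), and Cacna2d1 6483.8 and 7380.9 (0.19). Kcne1 read 1872.6 and 1546.2 there (-0.28).

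Across the 47 channel genes with ratios in both regions, the ratio in the amygdala correlated with that in the PFC at r = -0.832, and 35 of the 47 had opposite signs. Over all tested genes r was -0.627, with opposite signs in 2256 of 3096. The amygdala and the VTA gave r = -0.732 over 49 channel genes and -0.562 over all genes, and the PFC and VTA 0.701 and 0.569. The caudate and accumbens gave 0.458 over 51 channel genes and -0.0206 over all genes. Kcnj11 had the lowest channel gene ratio in the caudate (-0.389), accumbens (-0.871) and amygdala (-1.362). It had the highest in the PFC (1.591) and VTA (0.994). Its other tested probe set gave no ratios of this size. How far the r values of the channel genes rest on Kcnj11 was not tested. All r values here are correlations across genes, which are not independent replicates, and each point shares its arrays with every other point. A ratio below 0 in the amygdala and above 0 in both the PFC and VTA was found for 18 of 47 channel genes (38.3%), beside 33.6% of all genes, and the reverse for 8 (17%), beside 22.2%.

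**Figure D5:**
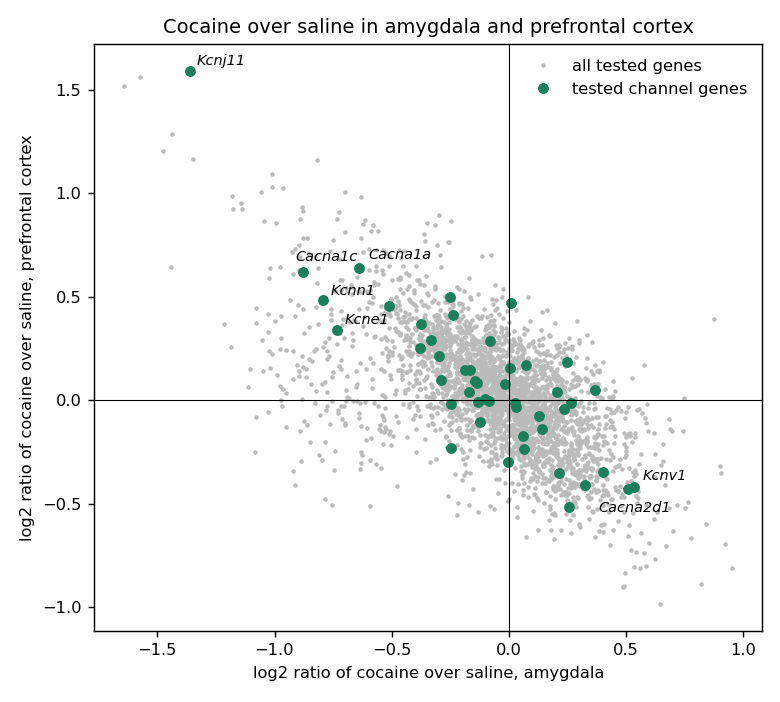
Log2 ratio of cocaine over saline in the amygdala (x axis) against that in the PFC (y axis), with 1 point per gene: 47 channel genes in green over all tested genes in grey. The points run from upper left to lower right, at r = -0.832 for the channel genes and -0.627 for all tested genes, with Kcnj11 at the upper left end of the channel genes.

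The arrays of these pairs also differed in other ways. The amygdala pair had the lowest correlation of any region (r = 0.94) and the prefrontal pair the next lowest (r = 0.953). The saline and cocaine arrays held 91 and 42 zeros in the amygdala, 18 and 226 in the PFC, and 40 and 120 in the VTA, against 8 to 19 on the striatal arrays. Hcrt read 23627 and 6807.8 in the saline and cocaine samples of the VTA. The 7 tested inhibitory neuron markers were mixed there, with sums of 43930 and 36766. Pvalb, a marker of fast-spiking neurons, read 2297.7 and 5166.3, and Gad2 and Calb2 also read higher with cocaine. Gad1 (8526.8 and 4064.8), Sst (9413.3 and 3638.1), Npy and Slc32a1 read lower. Ttr read 34312 and 11221 in the caudate. With 1 array per region and treatment, a difference between samples of a region cannot be told apart from an effect of cocaine, and the part of these values in the ratios was not tested.

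Channel genes below the limit for testing were read on their raw index. Of 26 with a value on the arrays of the amygdala, PFC and VTA, 12 had a ratio below 0 in the amygdala and above 0 in both other regions, as Kcnj11 and Cacna1c did, which is 46.2% beside 37.2% of all genes below the limit. The reverse held for 5 (19.2%), beside 24.6%, namely Cacnb4, Kcna2, Kcnb2, Kcnh5 and Scn2b. Of these 5, Kcnh5 had 6 of 10 values below the floor of 1028 and the others had all 10 below it. Among the 12, Kcnj2 and Kcnj12 also had all 10 values below it. Such ratios lie in the range that the tests raised to the floor. Scn9a, a pore subunit known from peripheral neurons, had the widest ratios in this set, at 2365.2 and 1238.1 in the amygdala, 1334.6 and 2704.8 in the PFC and 1347.9 and 2252.2 in the VTA. Its other, dimmer probe set ran the opposite way, at 406.02 and 725.21, 553.22 and 384.74, and 1396.7 and 907.49. Cacna1d, the L-type pore that supports pacemaking in dopamine neurons, read 2245.8 and 1429.5, 1469.9 and 2576.1, and 1235 and 1733.9 in the same regions. The second brightest of its 5 probe sets also ran the opposite way, at 1324.2 and 1694.5, 1491.3 and 1317.4, and 1427 and 1348.3. Another, with all 10 values below the floor, ran the same way as the first. It read 884.86 and 425.02, 439.26 and 943.15, and 439.25 and 760.16. Of the remaining probe sets, one ran with the first in the PFC and VTA only. The other did so in the amygdala and VTA only. Kcnj6, a G protein-gated rectifier through which dopamine neurons are inhibited, read 1384.1 and 1199.9 in the amygdala, 1293.8 and 1716.5 in the PFC and 1129.8 and 1388.4 in the VTA, and between 1190.3 and 1280.7 in the striatal regions. Its lowest value on any array was thus the saline sample of the VTA.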

How the data were processed

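Total RNA of 5 rat brain regions was measured on 10 single-colour arrays, 1 per region and treatment. The authors deposited linear-scale intensities, which are dChip expression indices per the labels. Not given in the sources used here are the version and model of dChip and how arrays were scaled. The members, the classes and the marker and partner gene lists were chosen with earlier results of these data known.

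No further normalization was applied. Exact zeros were treated as missing, values below an index of 1028 (the 20th percentile of values above 0) were raised to it, and log2 was taken. Of 8799 probe sets, 59 controls were left out, and the 5244 probe sets with a mean index of at least 1824 were kept. Of these, 5232 had a value in every region and entered the region comparisons, and 5238 with at least 3 full pairs entered the cocaine comparison. limma 3.58.1 in R 4.3.3 was fitted with an intensity trend and 4 residual degrees of freedom, with Benjamini-Hochberg adjustment over all tested probe sets. Region was tested with treatment as a term, and cocaine with region as a block, since the arrays of a region share its label. Background shares count each gene by its brightest probe set. The scripts were tested on simulated data.

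Named genes were every channel gene called in a region, the gene with the same sign in all 5 regions, the 3 highest and 3 lowest cocaine ratios in each region, the member of each class with the highest mean index, and other tested probe sets of these. Genes beyond that rule were named after their values were seen. They are the partner genes, untested genes, genes counted as not overlapping, and other tested genes such as Kcnab3, Kcnd2, Kcnd3 and Cacna1h. Alternatives were zeros raised to the floor, floors at the 10th and 30th percentile, no filter or the upper 40%, median scaling, quantile normalization, another probe set, no trend, no treatment term, no region block, and each array or pair left out. The number of arrays limits the precision.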

Additional observations from a re-analysis of the deposited data

Results flagged for a closer look

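Channel genes whose cocaine over saline ratio passed 1.5-fold in opposite directions in different regions stood out. Each ratio rests on 1 array against 1 array, and the difference between regions was not tested. Kcnj11 had log2 ratios of -1.36 in the amygdala and -0.87 in the nucleus accumbens, but 1.59 in the prefrontal cortex, with 0.99 for the ventral tegmental area. Cacna1c had -0.88 in the amygdala and 0.62 in the prefrontal cortex. Cacna1a had -0.64 in the amygdala and 0.64 in the prefrontal cortex. For Kcnj11 and Cacna1c, and for 1 of the 2 other tested probe sets of Cacna1a, another probe set did not repeat the ratio.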

How the results depend on the processing

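Of 165 recomputed region differences of the 7 called genes, 117 kept the call, 47 lost it and 1 turned. With another tested probe set, an alternative chosen after seeing the data, Kcnab2 had a log2 difference of 0.03 in the prefrontal cortex (adjusted p = 0.937) and 0.19 in place of -0.35 in the ventral tegmental area (adjusted p = 0.386). The cocaine ratio of Kcnj11 was then 0.226 for the amygdala, -0.025 for the caudate, 0.077 for the accumbens, -0.046 for the PFC and -0.144 for the VTA. Cacna1c gave 0.089 for the amygdala, -0.057 for the PFC and -0.237 for the VTA, and Cacna1a gave 0.045 for the accumbens. All of these cocaine ratios turned except that of Kcnj11 in the caudate. The region difference of Kcnab2 turned in the VTA and kept its sign in the PFC. The cause was not tested. Kcnab2 in the prefrontal cortex kept its call under the 15 other alternatives run for single genes, while Kcnj16 in the ventral tegmental area kept it under 6 of 14. Leaving out 1 array gave 0 to 3 calls in the amygdala, 0 to 4 in the caudate putamen, 1 to 5 in the prefrontal cortex and 1 to 9 in the ventral tegmental area. The amygdala had 3 (Scn2a, Cacnb3 and Kcnv1) only without its saline array. The caudate putamen had 0 without either of its own arrays and 1 in the upper 40% of probe sets. The prefrontal cortex had 1 call with no filter. Past 1.5-fold, the amygdala had 3 genes in the upper 40%, where fewer genes were tested. With no filter, where more were, the prefrontal cortex had 7 and the ventral tegmental area 2. With zeros raised to the floor the prefrontal cortex had 5. Cocaine against saline gave 0 calls under every alternative run, no region block included. No paired analysis by replicate number was possible because the labels number no replicates. The number of arrays and signal near background limit what could be seen in the 27 untested genes.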
